A study of Mus musculus with 10 samples.

Results

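Mouse embryonic stem cells in the culture condition labelled 2iL-F were compared with cells of the same line in serum plus LIF, labelled SL, by RNA-seq. The comparison holds 4 of the 10 libraries of the series, 2 of each condition, chosen by their labels alone. The line carries the strain label C57BL6X129S6F1 and is 1 line in all conditions. The 2iL-F cells were in the serum-free medium N2B27 with 1000 IU of mLIF, 3 µM of the GSK3 inhibitor Chir99021 and 1 µM of the MEK inhibitor PD0325901, and are labelled as grown without feeder cells. The SL cells were in KO-DMEM with 15% FBS and 1000 IU of mLIF, and are labelled as grown on feeder cells. The cytokine mLIF was therefore present on both sides, while the basal medium, the serum, both inhibitors and the feeder label differed together and cannot be told apart. Libraries labelled 2iL (the 2iL-F medium, labelled with feeders) and A2iL (1.5 µM of the Src inhibitor CGP77675 in place of PD0325901, labelled with feeders) are cited where they help to place a value.

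LIF acts through the receptor gp130 and the transcription factor STAT3 and sustains self-renewal in serum. Serum and the cells' own FGF4 also activate the kinases MEK and ERK, which push the cells out of the naive state, and inhibitors of MEK and GSK3 hold them in a more uniform naive "ground state". Feeder cells are usually growth-arrested embryonic fibroblasts, and in fibroblasts serum is a classical stimulus of the actin cytoskeleton and of the transcription factor SRF.

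The values are TPM, the share of a transcript among all transcripts of a library on a fixed scale. They keep no read number, so the depth behind them is unknown. Differences below are of log2(TPM + 1), 2iL-F minus SL, ± the standard error from limma, and understate the change of genes at low TPM. A gene is said to have risen, fallen or changed only at a Benjamini-Hochberg adjusted p below 0.05 over all lines tested. The 2 libraries of 2iL-F correlated at 0.994 across genes and those of SL at 0.992, against a mean of 0.911 between the conditions. The labels do not say whether the libraries of a condition are separate cultures, and the p-values rest on the spread between them alone, which may be technical. Genes are named only from the first part of the table, where symbols stand beside their own values, which held 7962 of the lines tested.

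Both sides held fibroblast RNA, in spite of the feeder labels. None of the 45 fibroblast markers that could be named was below 0.05 TPM in both 2iL-F libraries or in both SL libraries. Of these markers 42 reached 1 TPM in both 2iL-F libraries, against 45 in SL. Their TPM summed to between 5543 and 5761 in the 2iL-F libraries, against 6668 to 6971 in the SL libraries. In the libraries labelled 2iL the sum was 1150 to 1191, and 18 of the 45 markers were below 0.05 TPM in both, among them Acta2, Col3a1, Bgn, Dcn, Postn, Prrx1 and Twist2. The embryonic stem cell factor Pou5f1 had 1173 and 1146 TPM in 2iL-F, against 991 and 1047 TPM in SL, a difference of 0.19, so both sides also carried stem cell RNA. Whether the labels 2iL-F and 2iL were exchanged was not tested; they are used as given, and what the feeder label means for any value of 2iL-F or 2iL depends on them. Markers of endothelial cells summed to 104 to 107 TPM in 2iL-F, against 43.7 to 47.4 TPM in SL. Their sum was 135 to 145 TPM in 2iL and 63.6 to 64.2 TPM in A2iL. Of 8 tested, 5 rose, among them Vwf (2.99) and Tek (2.04), and 3 fell, among them Esam (-1.31). Cdh5 and Robo4 were below 0.05 TPM in both 2iL-F libraries. Pecam1, given below among the naive genes, is also 1 of these markers. Markers of blood cells summed to 116 to 123 TPM in 2iL-F, against 44.4 to 50.9 TPM in SL. Here 2iL had 109 to 113 TPM and A2iL 98.1 to 99.5 TPM, so sums above SL were not particular to 2iL-F. Of 9 tested, 4 rose, among them Spi1 (1.04), and 4 fell, among them Adgre1 (-1.11). Ptprc, the pan-leukocyte gene, was below 0.05 TPM in both 2iL-F libraries. In such mixed RNA, fewer cells of a type and less RNA per cell cannot be told apart, and the part of the fibroblasts in the results below was not tested except where values are given.

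Of 14578 lines tested, 9540 changed, which is 65.4%. The 2iL-F libraries were higher for 4099 lines (28.1%) and lower for 5441 (37.3%), and the median difference over all lines was -0.08. Most of these differences were small. A difference of 1 or more was reached by 1129 lines that were higher in 2iL-F (7.74%) and 1223 that were lower (8.39%), and one of 3 or more by 93 that were higher and 76 that were lower. Among the 7962 genes that could be named, 68.6% changed, 29% upward and 39.6% downward, and the counts for each gene group below are to be read against these shares.

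**Figure D1:**
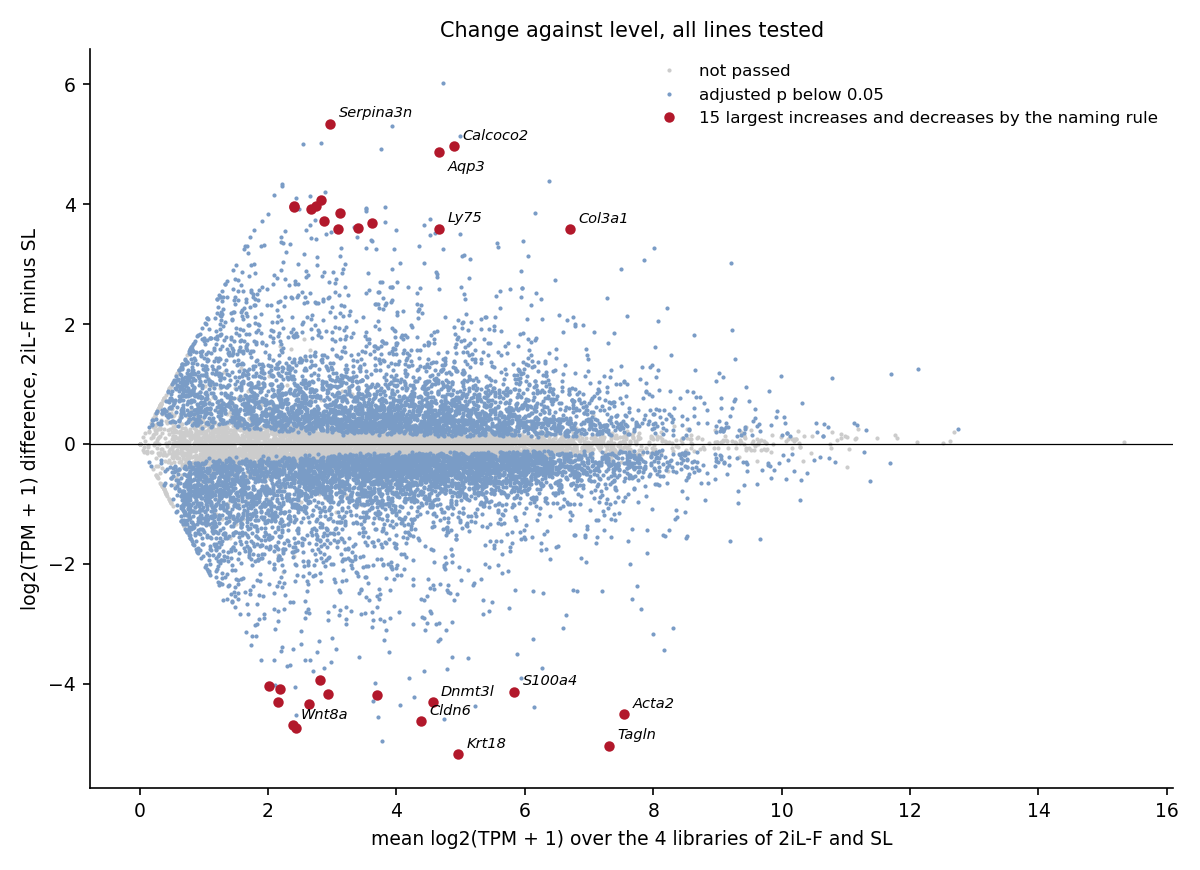
Difference of log2(TPM + 1), 2iL-F minus SL, against the mean level over the 4 libraries, for the 14578 lines tested. Blue points had an adjusted p below 0.05, grey points did not, and red points are the 15 largest increases and 15 largest decreases by the naming rule. Large differences in both directions occur up to high levels, with Tagln and Acta2 far below 0 and Col3a1 far above it.

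Among genes that met the naming rule below, the largest increase was that of Serpina3n, a secreted inhibitor of serine proteases made in acute inflammation. It had 49.3 and 48.5 TPM in 2iL-F, against 0.181 and 0.280 TPM in SL, a difference of 5.34 ± 0.110 (adjusted p = 4.90e-09). A2iL held 15.5 and 15.2 TPM of it, and both libraries labelled 2iL list it at 0. Calcoco2, an autophagy receptor, had 164 and 167 TPM in 2iL-F, against 4.54 and 4.15 TPM in SL (4.96 ± 0.0897), and here the 2iL libraries, at 121 and 125 TPM, were near those of 2iL-F. Aldh1l1, which oxidises 10-formyltetrahydrofolate, had 27.3 and 28.6 TPM in 2iL-F, against 0.580 and 0.873 TPM in SL, a difference of 4.07 ± 0.0927. The 15 largest increases further held the glycerol channel Aqp3 (4.87), the homeobox gene Gsc (3.93), calretinin, Calb2 (3.95), the glutathione transferase Gstm3 (3.72), the endocytic receptor Ly75 (3.59), the mitochondrial acetyl-CoA synthetase Acss1 (3.59) and the fibril collagen Col3a1 (3.58). They also held Smtnl1 (3.97), Ly6g6e (3.97), Ppp1r14d (3.85), Ildr1 (3.68) and Susd2 (3.61). Like Serpina3n, Col3a1 was all but absent from the libraries labelled 2iL, at 0.0268 and 0 TPM.

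Among genes that met the naming rule, the largest decrease was that of Krt18, the keratin of simple epithelia. It had 4.66 and 3.71 TPM in 2iL-F, against 180.1 and 192 TPM in SL, a difference of -5.18 ± 0.105 (adjusted p = 4.62e-09). Next came Tagln, an actin-binding protein of smooth muscle and of contractile fibroblasts, with 27.6 and 25.9 TPM in 2iL-F, against 884 and 933 TPM in SL (-5.03 ± 0.0903). S100a4, a calcium-binding protein common in fibroblasts, had 13.3 and 11.96 TPM in 2iL-F, against 235 and 241 TPM in SL (-4.13 ± 0.109). These 3 genes were among the more abundant ones in SL, and no 2iL-F library came near an SL library. Others were all but absent from 2iL-F: Mcpt8, a protease of basophils, had 0.0896 and 0 TPM in 2iL-F, against 25.6 and 28.1 TPM in SL, and Car4, a carbonic anhydrase, was listed at 0 in both 2iL-F libraries, against 15.4 and 15.4 TPM in SL. Spink1, a trypsin inhibitor, was likewise listed at 0 in both 2iL-F libraries, against 18.9 and 18.5 TPM in SL. The 15 largest decreases further held the Wnt ligand Wnt8a (-4.69), the tight junction gene Cldn6 (-4.62), the ERK inhibitor Spry4 (-4.34), the methyltransferase cofactor Dnmt3l (-4.31), the ephrin receptor Epha1 (-3.94), the contractile genes Acta2 (-4.51) and Cnn1 (-4.17), and the membrane proteins Tm4sf1 (-4.19) and Tmem54 (-4.09).

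Genes of the contractile actin cytoskeleton were lower in 2iL-F almost throughout. Of 33 tested members, 29 fell, 2 rose and 2 did not pass, with a median difference of -1.14 beside -0.08 for all named genes. Acta2, smooth muscle actin, had 36.8 and 39.3 TPM in 2iL-F, against 875 and 907 TPM in SL, a difference of -4.51 ± 0.0743 (adjusted p = 2.74e-09). Cnn1, the calponin of smooth muscle, had 0.751 and 0.862 TPM in 2iL-F, against 32.4 and 30.4 TPM in SL. The SL libraries were the high ones for both genes and the groups did not come near each other. Of the tropomyosins, which line actin filaments, Tpm1 had 31.7 and 33.1 TPM in 2iL-F, against 279 and 283 TPM in SL (-3.08 ± 0.0617), and Tpm2 had 14.5 and 14.02 TPM in 2iL-F, against 105 and 112 TPM in SL (-2.84 ± 0.0629). Calponin Cnn2 fell by 2.86 on the log2 scale, Pdlim7 by 2.11, the focal adhesion proteins Lpp and Zyx by 2.21 and 1.73, and caldesmon, Cald1, by 1.66. Skeletal actin, Acta1, also fell, but its 2iL-F libraries differed widely, at 7.22 and 1.19 TPM, against 34.0 and 34.6 TPM in SL. Most of these transcripts were low in A2iL as well, which had 23.7 and 24.8 TPM of Acta2 and 25.4 and 25.3 TPM of Tagln. Between 2iL-F and A2iL the 33 contractile genes had a median difference of 0.06, with 11 higher in 2iL-F and 9 lower, where 23.7% of all named genes were higher and 23.9% lower. The letters of the CArG box, which SRF binds, stood on either strand within 250 bases before to 50 after the annotated start of 3 of the 28 members with such a window (Acta1, Cnn2 and Vcl), or 10.7%, against 1.81% of all genes. The list was assembled as contractile genes, so a larger share could follow from that choice, and a match says nothing of binding.

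Targets of SRF and of the YAP and TEAD factors, which respond to actin tension and serum, were also lower in 2iL-F. Of 12 tested targets 11 fell and none rose, with a median of -1.43. Ankrd1, a nuclear ankyrin repeat protein, had 3.09 and 3.07 TPM in 2iL-F, against 26.9 and 29.7 TPM in SL, and the receptor kinase Axl had 23.4 and 24.0 TPM in 2iL-F, against 131 and 134 TPM in SL. The secreted matricellular factors Ctgf and Cyr61 fell by 1.90 and 1.09 on the log2 scale. The 2iL-F libraries were below the SL libraries for each of these 4 genes, without overlap. The regulators moved less uniformly, with 3 of 12 higher and 5 lower: Tead4, a DNA-binding partner of YAP, rose (2.39 ± 0.0544) with 35.1 and 33.1 TPM in 2iL-F, against 5.72 and 5.64 TPM in SL, and the kinase Lats2, which restrains YAP, fell (-1.13). Integrins and other adhesion receptors fell in 16 of 21 cases and rose in 4 (median -0.62). Itgb1, the beta chain shared by many integrins, had 163 and 173 TPM in 2iL-F, against 483 and 479 TPM in SL (-1.51 ± 0.0937). Itga3, a laminin-binding alpha chain, had 11.1 and 11.03 TPM in 2iL-F, against 63.0 and 70.0 TPM in SL (-2.48 ± 0.0739), and Cd44, the hyaluronan receptor, had 23.1 and 22.4 TPM in 2iL-F, against 102 and 107 TPM in SL (-2.15 ± 0.0555).

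The fibril-forming collagens were higher in 2iL-F. Of 8 tested chains 6 rose and 1 fell, with a median of 1.19. Beside Col1a1 (1.42 ± 0.0613) and Col3a1 (3.58 ± 0.0741), the second type I chain Col1a2 had 252 and 245 TPM in 2iL-F, against 101 and 108 TPM in SL (1.24 ± 0.0498). Among the chains of type V, which nucleates fibrils, Col5a3 had 42.3 and 39.9 TPM in 2iL-F, against 8.99 and 8.54 TPM in SL (2.11 ± 0.0619) and Col5a1 differed by 1.14. For all of these the 2iL-F libraries were the high ones. The exception was the cartilage collagen Col2a1, which fell (-1.82) at low levels, with 0.532 and 0.567 TPM in 2iL-F, against 4.37 and 4.57 TPM in SL. The other chains were split, with 4 of 10 higher and 5 lower. The fibril-associated Col14a1 (2.85) and the microfibrillar Col6a1 (1.20) and Col6a2 (1.54) rose, while the basement membrane chains Col4a1 (-1.79 ± 0.0654) and Col4a2 (-1.55 ± 0.0614) fell. Col4a1 had 29.6 and 27.4 TPM in 2iL-F, against 98.1 and 104 TPM in SL, without overlap between the groups. Enzymes and chaperones that process collagen rose in 13 of 20 cases and fell in 5 (median 0.37), from the protease Ctsk (1.35) and the prolyl hydroxylase P3h1 (1.14) among the increases to the crosslinking oxidase Loxl3 (-2.09) among the decreases. Without the 695 lines that follow the fibroblast markers over the 10 libraries, 2 of these 5 decreases were left to count. Those lines were picked by a correlation above 0.9 with the summed markers, a sum that was highest in SL. Genes high in SL could thus be picked more easily. Here and below, such counts do not show which calls come from fibroblasts.

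**Figure D2:**
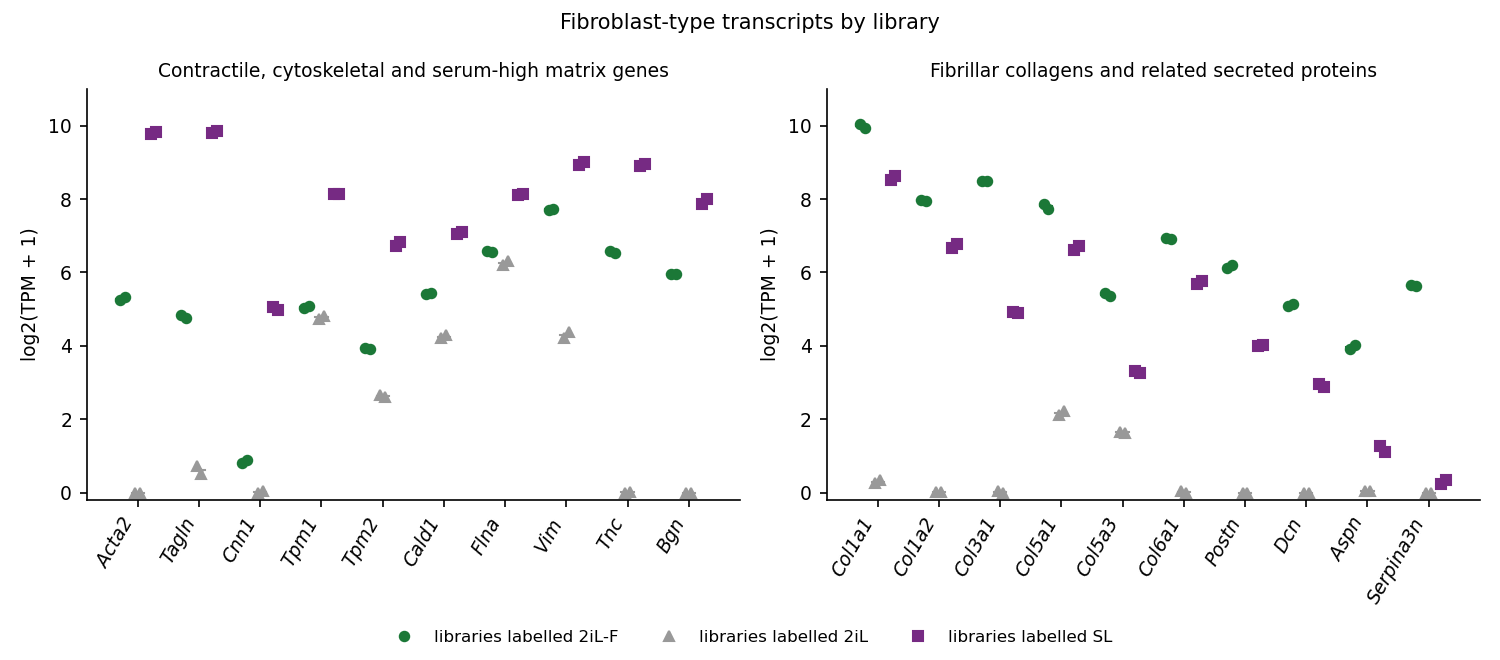
Levels of 20 fibroblast-type genes as log2(TPM + 1), 1 point per library, in libraries labelled 2iL-F (green circles), 2iL (grey triangles) and SL (purple squares). In the left panel the SL libraries lie above the 2iL-F libraries for every gene, and in the right panel the order is the opposite, while the libraries labelled 2iL lie lowest for every gene.

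Other matrix genes were divided more evenly than the fibril-forming collagens. Of 42 tested matrix proteins and proteoglycans 20 rose and 15 fell, with a median of -0.01. Asporin, Aspn, had 14.1 and 15.4 TPM in 2iL-F, against 1.43 and 1.14 TPM in SL (2.79 ± 0.111), decorin, Dcn, had 32.9 and 34.3 TPM in 2iL-F, against 6.79 and 6.32 TPM in SL (2.20 ± 0.0621), and periostin, Postn, had 69.0 and 73.2 TPM in 2iL-F, against 15.0 and 15.1 TPM in SL (2.17 ± 0.0662). These 3 proteins bind collagen fibrils, and each was higher in both 2iL-F libraries than in either SL library. Tenascin C, Tnc, which is induced by tension and in wounds, had 95.3 and 92.1 TPM in 2iL-F, against 478 and 499.8 TPM in SL (-2.37 ± 0.0477). The hyaluronan synthase Has2 had 2.59 and 2.84 TPM in 2iL-F, against 24.9 and 24.4 TPM in SL (-2.79 ± 0.0810), and biglycan, Bgn, a proteoglycan close to decorin, had 61.5 and 61.4 TPM in 2iL-F, against 230.4 and 258 TPM in SL (-1.97 ± 0.0582). For these 3 the SL libraries were the high ones. Matrix proteases rose in 17 of 26 cases and fell in 6, and their inhibitors fell in 5 of 7. The gelatinase Mmp9 (-3.46) and the plasminogen activator Plau (-2.73) fell, and the aggrecanase Adamts5 rose (2.37). Transcription factors of mesenchyme fell in 11 of 19 cases and rose in 3, with Twist2 at 7.74 and 7.04 TPM in 2iL-F, against 33.0 and 36.7 TPM in SL and Prrx1 at 14.7 and 15.5 TPM in 2iL-F, against 35.5 and 36.5 TPM in SL. Of these calls 6 decreases and 1 increase were left without the lines that follow the fibroblast markers, 3 decreases at a filter of 5 TPM and 1 increase without SL replicate 3.

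Secreted proteins of inflammation were split by kind. Of 18 tested genes of the acute phase and complement 12 rose and 4 fell (median 0.74), whereas of 23 chemokines and cytokines 5 rose and 14 fell (median -0.93). Ptx3, a soluble pattern recognition protein, had 135 and 130.4 TPM in 2iL-F, against 21.4 and 21.1 TPM in SL (2.59 ± 0.0607). The C1 inhibitor Serping1 had 18.0 and 15.6 TPM in 2iL-F, against 2.15 and 2.40 TPM in SL (2.44 ± 0.116), and the protease trap A2m had 6.24 and 6.24 TPM in 2iL-F, against 0.107 and 0.0411 TPM in SL (2.75 ± 0.126). Csf1, the growth factor of macrophages, had 16.8 and 16.3 TPM in 2iL-F, against 194 and 202 TPM in SL, a difference of -3.50 ± 0.0493. Il11, a cytokine of the gp130 family, had 0.355 and 0.521 TPM in 2iL-F, against 9.55 and 8.94 TPM in SL, and Tnfsf11, the RANK ligand, had 0.480 and 0.937 TPM in 2iL-F, against 11.4 and 10.1 TPM in SL. The chemokine Ccl8 was an exception among the chemokines, with 12.8 and 15.0 TPM in 2iL-F, against 0.732 and 0.188 TPM in SL (3.37 ± 0.204). Interferon response genes had 12 higher and 18 lower among 43, near the shares of all named genes. The ubiquitin-like Isg15 had 33.9 and 30.8 TPM in 2iL-F, against 96.7 and 86.2 TPM in SL, the antiviral synthetase Oas2 had 5.70 and 4.81 TPM in 2iL-F, against 0.504 and 0.454 TPM in SL, and the membrane protein Ifitm1 had 221 and 212 TPM in 2iL-F, against 55.3 and 54.7 TPM in SL, so that members of 1 response lay on opposite sides. In the libraries labelled 2iL, Isg15 had 0.116 and 0.109 TPM and Oas2 had 0.808 and 0.833 TPM. Of the 18 decreases 7 were left without the lines that follow the fibroblast markers.

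Genes of naive pluripotency were higher in 2iL-F as a group. Of 23 tested members 20 rose and 2 fell, with a median of 1.68, and 7 of 10 members of the core list rose. Tbx3, a T-box factor that sustains self-renewal, had 108 and 102 TPM in 2iL-F, against 8.04 and 8.80 TPM in SL (3.50 ± 0.0559; adjusted p = 2.74e-09). Spic, an ETS factor, had 10.7 and 10.6 TPM in 2iL-F, against 0.260 and 0.1001 TPM in SL (3.31 ± 0.107), and it had 0.858 and 0.761 TPM in A2iL. Morc1, a gene of transposon silencing in germ cells, had 62.2 and 66.4 TPM in 2iL-F, against 8.30 and 8.64 TPM in SL (2.78 ± 0.108). The surface protein Pecam1 had 44.3 and 43.5 TPM in 2iL-F, against 6.27 and 6.38 TPM in SL (2.62 ± 0.0455), alkaline phosphatase, Alpl, had 209 and 201 TPM in 2iL-F, against 47.6 and 49.3 TPM in SL (2.06 ± 0.0477), and Klf4 had 536 and 497 TPM in 2iL-F, against 182 and 188 TPM in SL (1.48 ± 0.0457). All 4 libraries separated by condition for these 6 genes, with 2iL-F high. Klf4 was lower in the libraries labelled 2iL, at 157 and 153 TPM. The homeobox factor Gbx2, a STAT3 target, fell, with 28.1 and 23.4 TPM in 2iL-F, against 92.9 and 94.7 TPM in SL (-1.83 ± 0.0768). In the core list Sall1 (0.98), Gdf3 (0.94) and Mybl2 (0.82) rose, Tdgf1 fell by 0.29 and Sall4 did not pass, with 75.9 and 75.2 TPM in 2iL-F, against 79.2 and 80.1 TPM in SL.

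Primed and formative genes fell in 17 of 20 cases and rose in 3 (median -2.25). Pim2, a serine kinase, had 6.72 and 6.34 TPM in 2iL-F, against 98.6 and 102 TPM in SL (-3.75 ± 0.0833), and Foxp1, a forkhead factor, had 2.81 and 2.58 TPM in 2iL-F, against 17.2 and 17.3 TPM in SL (-2.31 ± 0.0774). Krt18 stood in this list and in that of epithelial junctions. Among 22 tested genes of epithelial junctions and cadherins 16 fell and 5 rose (median -0.98). The claudin Cldn6 had 2.55 and 3.94 TPM in 2iL-F, against 100.1 and 104 TPM in SL (-4.62 ± 0.131) and Cldn7 had 4.404 and 4.44 TPM in 2iL-F, against 30.6 and 32.3 TPM in SL (-2.58 ± 0.0543), while the epithelial regulator Grhl2 had 0.332 and 0.466 TPM in 2iL-F, against 9.18 and 9.75 TPM in SL. In the libraries labelled 2iL the claudins were not low, at 38.5 and 43.0 TPM for Cldn6 and 65.8 and 68.0 TPM for Cldn7. The direct contrast of 2iL-F with 2iL was -3.32 for Cldn6 and -3.65 for Cldn7, so the 2iL-F libraries were lower than both SL and 2iL. The serine protease St14 and its inhibitor Spint1, which act on epithelial surfaces, rose, by 1.17 and 1.68.

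Among genes of other lineages, neural and primitive endoderm genes were mostly lower. Mesendoderm genes lay near the shares of all named genes, and trophoblast genes were split evenly. Neural genes fell in 8 of 9 cases, led by Neurod1 (-2.13), a factor of neuron differentiation. Of 18 primitive endoderm genes 11 fell and 4 rose. The endocytic receptor Lrp2 had 0.460 and 0.429 TPM in 2iL-F, against 13.96 and 14.1 TPM in SL (-3.38 ± 0.0982), whereas Apoe, a lipid carrier, had 1178 and 1139 TPM in 2iL-F, against 307 and 312 TPM in SL (1.90 ± 0.0792). Of 16 mesendoderm genes 4 rose and 7 fell. Gsc, a homeobox gene of the organiser, had 22.1 and 25.6 TPM in 2iL-F, against 0.393 and 0.910 TPM in SL, while Fgf8, a ligand of the primitive streak, had 0.132 and 0.647 TPM in 2iL-F, against 16.5 and 17.0 TPM in SL. Both genes separated the conditions without overlap but in opposite directions. Trophoblast genes were even, with 7 of 16 higher and 7 lower: the AP-2 factor Tfap2c had 79.9 and 75.4 TPM in 2iL-F, against 23.3 and 23.8 TPM in SL and the keratin Krt19 had 2.55 and 2.12 TPM in 2iL-F, against 22.1 and 21.5 TPM in SL. Many of these lineage genes were rare in both conditions, and at a filter of 5 TPM the decreases numbered 2 for neural, 7 for primitive endoderm, 3 for mesendoderm and 3 for trophoblast genes.

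**Figure D3:**
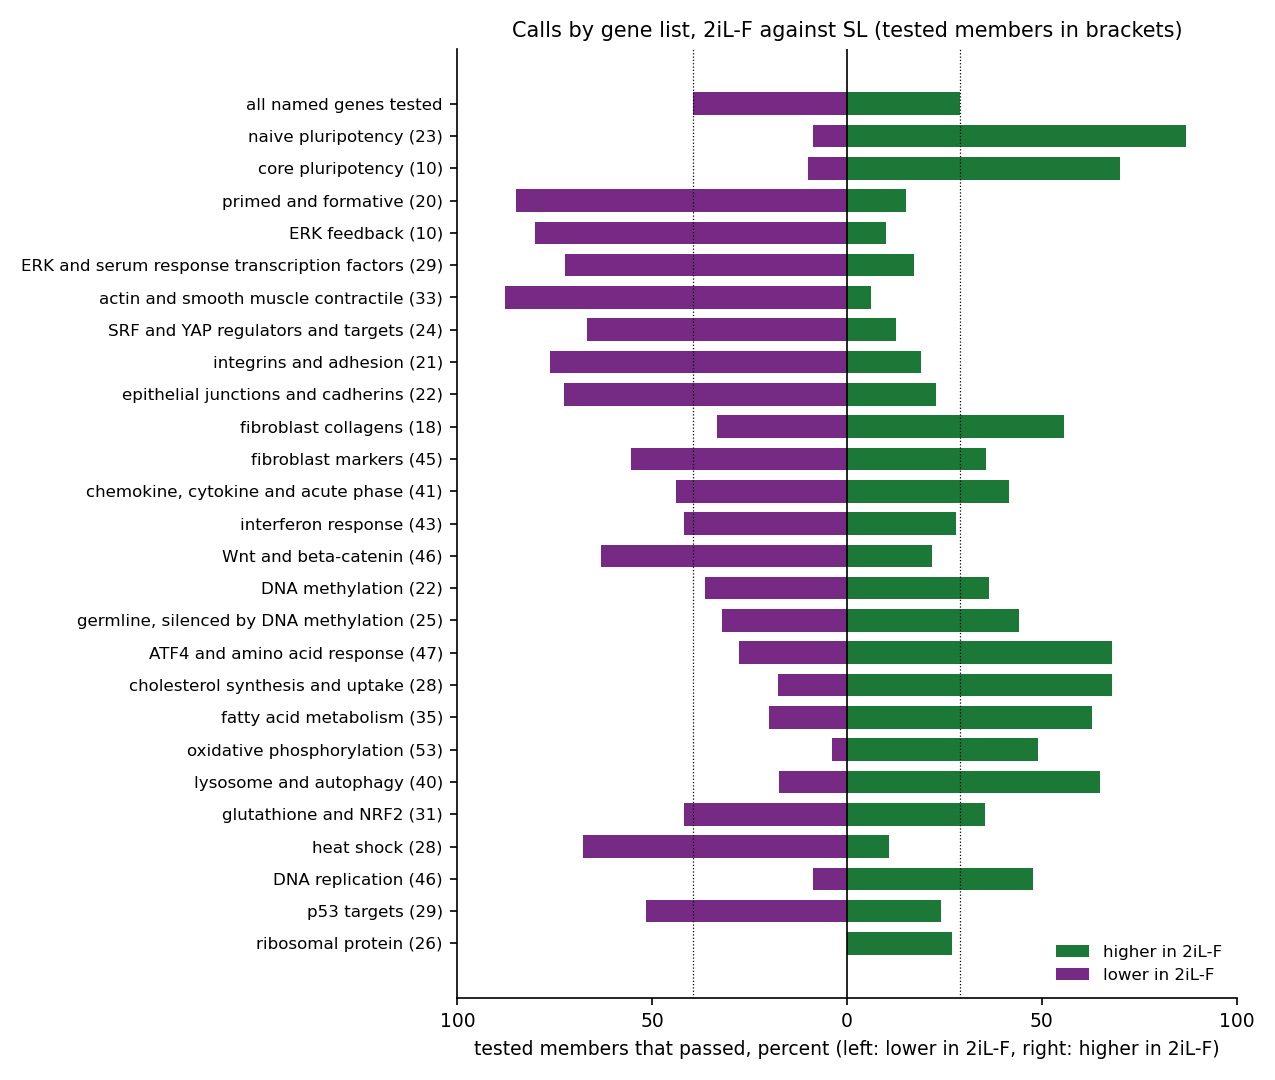
Share of the tested members of 26 gene lists that were lower in 2iL-F (bars to the left) and higher in 2iL-F (bars to the right), in percent, with all named genes in the top bar and as dotted lines. The bars of naive pluripotency, ATF4, cholesterol, fatty acid and lysosome genes reach far past the right line, and those of contractile, primed, ERK feedback and heat shock genes far past the left one.

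The MEK inhibitor acts upstream of ERK, whose output includes immediate early transcription factors and secreted ligands. The list used here was assembled for ERK and for the serum response together, and only SL had serum. Of its 19 transcription factors 14 fell and 4 rose, and of 10 other immediate early genes 7 fell and 1 rose. Fosl1, a partner of Jun, had 3.403 and 3.43 TPM in 2iL-F, against 45.8 and 50.8 TPM in SL (-3.48 ± 0.178), and Myc had 7.50 and 7.78 TPM in 2iL-F, against 67.2 and 70.1 TPM in SL (-3.01 ± 0.0738). Ptgs2, the inducible cyclooxygenase, had 14.5 and 16.4 TPM in 2iL-F, against 111 and 115 TPM in SL (-2.79 ± 0.0691), and the EGF receptor ligand Ereg had 1.97 and 2.50 TPM in 2iL-F, against 21.5 and 22.9 TPM in SL (-2.85 ± 0.123). In all 4 genes the SL libraries were high and the 2iL-F libraries low, and 2iL was lower still, with 0.194 and 0.333 TPM of Myc and 0.0766 and 0.0540 TPM of Ptgs2. A2iL, which like SL had no MEK inhibitor, held 28.0 and 27.02 TPM of Fosl1 and 118 and 116 TPM of Ptgs2. Libraries labelled LCDM also had no PD0325901. The 10 other immediate early genes summed to 148 TPM on average in LCDM, 229 in 2iL-F, 510 in SL and 537 in A2iL. The 19 transcription factors summed to 825 TPM in LCDM, 661 in 2iL-F, 960 in SL and 1305 in A2iL. Whether the MEK inhibitor or the lack of serum set these levels was not tested. The phosphatases Dusp4 (-3.29), Dusp6 (-3.10) and Dusp5 (-2.997), which switch off ERK and its kin, fell, while Dusp1 did not pass, with 201 and 189.8 TPM in 2iL-F, against 181 and 189 TPM in SL. Among the ligands Fgf7, a product of mesenchyme, had 1.35 and 1.32 TPM in 2iL-F, against 14.8 and 16.1 TPM in SL, and among the receptors Kit had 62.8 and 63.8 TPM in 2iL-F, against 5.53 and 5.49 TPM in SL (3.30 ± 0.0979). Eras, a Ras family member of embryonic stem cells, had 4.15 and 4.78 TPM in 2iL-F, against 40.0 and 39.6 TPM in SL (-2.90 ± 0.110).

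In the other signalling pathways single genes moved far, and the Wnt list was mostly lower. Of 21 BMP pathway genes 6 rose and 10 fell. The ligand Bmp4 had 3.70 and 2.95 TPM in 2iL-F, against 16.0 and 19.25 TPM in SL and the ligand Bmp7 had 11.03 and 10.02 TPM in 2iL-F, against 1.77 and 1.99 TPM in SL. The target Id3, an inhibitor of helix-loop-helix factors, had 39.2 and 41.6 TPM in 2iL-F, against 144 and 135 TPM in SL (-1.77 ± 0.0664), and its relative Id4 had 45.3 and 42.6 TPM in 2iL-F, against 9.50 and 8.37 TPM in SL (2.18 ± 0.0895). Id3 was nearly absent from the libraries labelled 2iL, at 0.0489 and 0 TPM. Of 46 Wnt pathway genes 10 rose and 29 fell, and 16 of the decreases were left at a filter of 5 TPM. Ligands and receptors made up 15 of the decreases, among them Wnt5a (-1.92). The secreted Wnt antagonists were split between Sfrp1, with 154 and 147 TPM in 2iL-F, against 14.2 and 13.5 TPM in SL, and Dkk2, with 1.35 and 2.22 TPM in 2iL-F, against 20.4 and 19.9 TPM in SL. Axin2, a direct target of beta-catenin, had 24.4 and 23.2 TPM in 2iL-F, against 11.9 and 12.3 TPM in SL (0.92 ± 0.0616) and Tcf7 differed by 0.37, whereas 8 of 11 targets fell. Among 31 genes of TGF-beta and activin 10 rose and 14 fell, near the shares of all named genes. The latency proteins Ltbp1 (-2.02) and Ltbp2 (-1.85) were among the decreases. Of 23 LIF and STAT3 genes 12 rose and 7 fell. The transcript of Lif itself had 5.999 and 7.57 TPM in 2iL-F, against 31.3 and 32.1 TPM in SL (-2.08 ± 0.0925) and the receptor Il6ra had 5.79 and 5.56 TPM in 2iL-F, against 1.52 and 1.42 TPM in SL (1.43 ± 0.0875).

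Of 22 genes of DNA methylation 8 rose and 8 fell, and the methyltransferases lay on both sides. Both de novo methyltransferases fell: Dnmt3a had 3.45 and 3.52 TPM in 2iL-F, against 41.9 and 42.7 TPM in SL (-3.27 ± 0.0572) and Dnmt3b had 20.99 and 22.4 TPM in 2iL-F, against 214 and 217 TPM in SL (-3.25 ± 0.0679). The maintenance enzyme Dnmt1 had 120.1 and 118 TPM in 2iL-F, against 78.3 and 82.8 TPM in SL (0.56 ± 0.0479), and its partner Uhrf1, which reads hemimethylated sites, had 388 and 382 TPM in 2iL-F, against 153 and 160.5 TPM in SL (1.29 ± 0.0441). Idh1 and Idh2, which make the 2-oxoglutarate that TET dioxygenases use, rose by 1.73 and 2.15. Of 25 germline genes that DNA methylation silences in somatic cells 11 rose and 8 fell (median 0.06). The RNA-binding protein gene Dazl had 8.96 and 10.2 TPM in 2iL-F, against 1.27 and 1.01 TPM in SL (2.31 ± 0.153), Sohlh2, a factor of germ cell differentiation, had 15.5 and 17.7 TPM in 2iL-F, against 2.85 and 2.40 TPM in SL (2.28 ± 0.113), and Hsf2bp, a meiotic recombination gene, had 63.5 and 61.8 TPM in 2iL-F, against 13.8 and 14.5 TPM in SL (2.07 ± 0.0750). Among the decreases, of which 5 were left at a filter of 5 TPM, the helicase gene Ddx4 had 2.40 and 2.96 TPM in 2iL-F, against 12.2 and 14.5 TPM in SL and Stra8, a retinoid target of meiotic entry, had 2.78 and 3.25 TPM in 2iL-F, against 14.5 and 13.1 TPM in SL. In the direct contrast of 2iL-F with 2iL, 15 of the 25 were lower in 2iL-F and 2 higher, where 34.9% of all named genes were lower and 29.3% higher. Among 16 imprinted genes 5 rose and 9 fell. The maternally expressed growth regulators Phlda2 and Grb10 fell by 2.60 and 1.70, and the paternally expressed Plagl1 rose (2.34) with 28.5 and 28.4 TPM in 2iL-F, against 4.72 and 4.94 TPM in SL. The noncoding RNA H19 had 672 and 666 TPM in 2iL-F, against 82.4 and 75.9 TPM in SL (3.06 ± 0.0512) and was almost absent from the libraries labelled 2iL, at 0.143 and 0.1005 TPM, as many fibroblast markers were.

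Among chromatin regulators the differences were smaller. Of 59 polycomb and histone modifier genes 20 rose and 18 fell, none by more than 1.21 on the log2 scale, the value of Wdr5, a subunit of H3K4 methyltransferase complexes. The genes of H3K4 methylation, H3K27 demethylation and acetylation rose in 13 of 25 cases and fell in 4, and those of H3K9 methylation and retroelement silencing rose in 1 of 16 and fell in 9. The polycomb subunit Suz12 had 113 and 118 TPM in 2iL-F, against 63.4 and 61.6 TPM in SL (0.87 ± 0.0737) and Cbx1, a reader of H3K9 methylation, had 94.9 and 93.4 TPM in 2iL-F, against 152 and 151 TPM in SL (-0.68 ± 0.0505). The replicates of a condition differed by less than the conditions for both. HOX genes, classical polycomb targets, fell in 9 of 16 cases and rose in 2, with 4 decreases and 1 increase left at a filter of 5 TPM. Rarg, a retinoic acid receptor, had 15.9 and 14.4 TPM in 2iL-F, against 77.6 and 85.2 TPM in SL (-2.35 ± 0.0755).

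The transcription factor ATF4 is translated when amino acids run short or proteins misfold. Genes listed for ATF4 and the amino acid response were broadly higher in 2iL-F, and whether ATF4 acted on them was not tested. Of 47 tested members 32 rose and 13 fell, with a median of 0.57 beside -0.08 for all named genes. The roles differed: 12 of 14 factors and sensors rose and 1 fell, 16 of 21 enzymes rose and 5 fell, but only 4 of 12 transporters rose and 7 fell. Asparagine synthetase, Asns, had 546 and 551 TPM in 2iL-F, against 131 and 133 TPM in SL (2.05 ± 0.0538; adjusted p = 1.34e-08). Nupr1, a small stress-induced nuclear protein, had 46.5 and 47.3 TPM in 2iL-F, against 7.74 and 6.92 TPM in SL (2.52 ± 0.0584), and Chac1, which degrades glutathione, had 36.1 and 36.2 TPM in 2iL-F, against 7.01 and 6.87 TPM in SL (2.23 ± 0.0648). Trib3, a pseudokinase induced by ATF4, had 56.5 and 56.7 TPM in 2iL-F, against 15.7 and 15.6 TPM in SL (1.79 ± 0.0491). The 2iL-F libraries were the high ones for all 4 genes and none overlapped SL. Among the enzymes Pycr1, the last step of proline synthesis, had 40.8 and 38.4 TPM in 2iL-F, against 11.95 and 11.04 TPM in SL (1.70 ± 0.0603), the alanine transaminase Gpt2 had 59.9 and 59.5 TPM in 2iL-F, against 16.0 and 18.8 TPM in SL (1.73 ± 0.0722), and the glycine enzyme Gcat had 104 and 103 TPM in 2iL-F, against 31.8 and 33.9 TPM in SL (1.63 ± 0.0565). Glutamine synthetase, Glul, fell, with 50.1 and 49.3 TPM in 2iL-F, against 163 and 164 TPM in SL (-1.70 ± 0.0545). The transporter Slc7a7, which exports basic amino acids, had 8.30 and 7.72 TPM in 2iL-F, against 69.0 and 72.8 TPM in SL (-2.996 ± 0.0760). The factor Ddit3, which ATF4 induces and which is a sign of endoplasmic reticulum stress, rose by 0.89. Of 22 other genes of the unfolded protein response 6 rose and 7 fell, neither above the share of all named genes, with a median of 0.03. These decreases numbered 4 without 2iL-F replicate 3, 4 without SL replicate 3, 3 without SL replicate 5 and 3 after median-of-ratios scaling, where 10 rose.

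**Figure D4:**
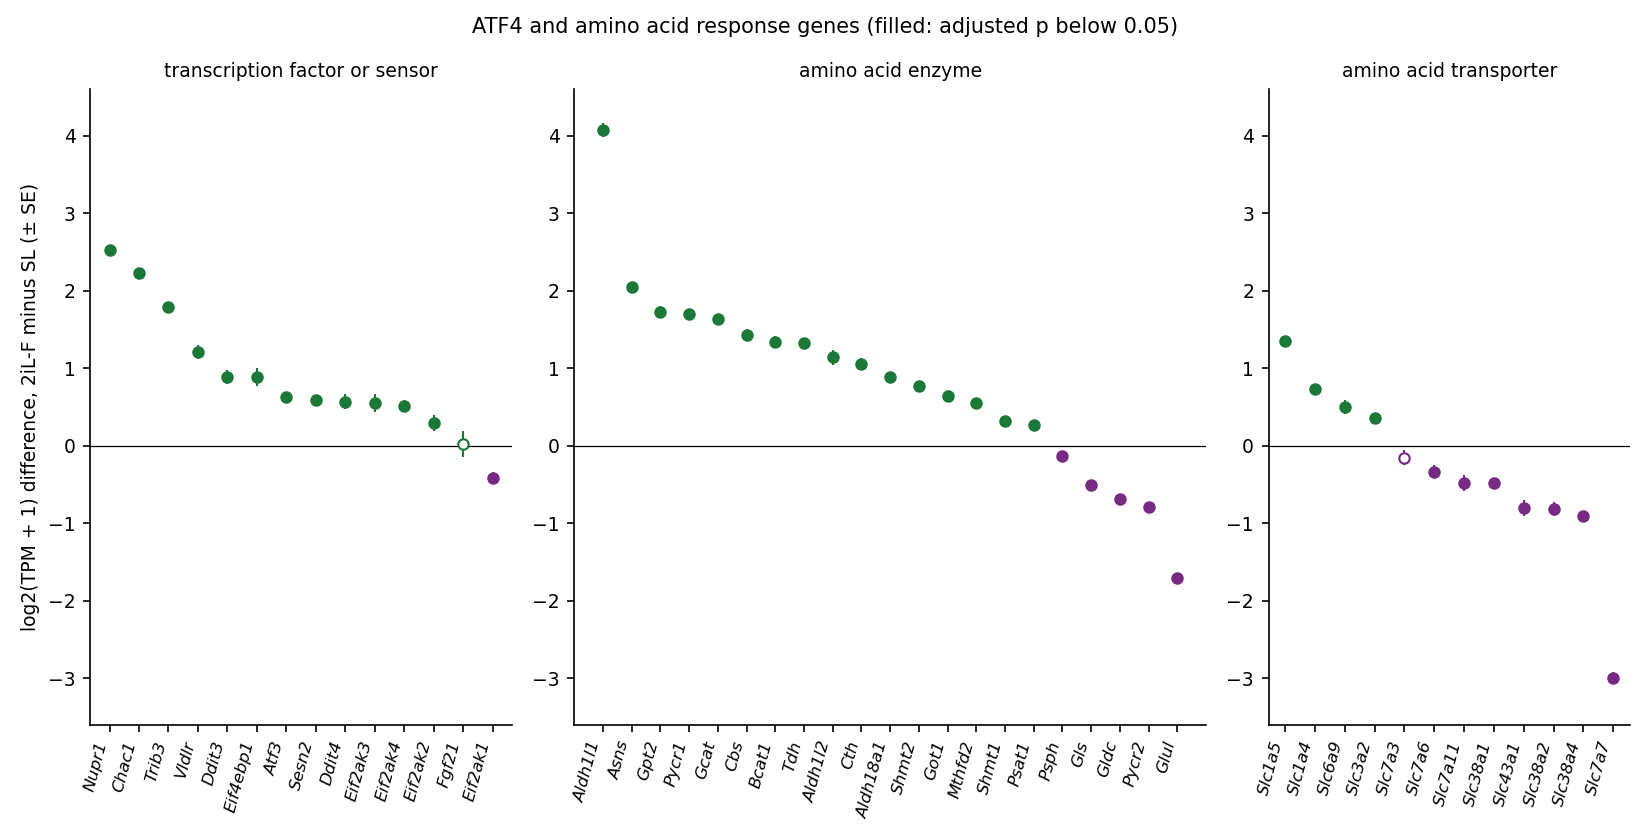
Difference of log2(TPM + 1), 2iL-F minus SL, ± SE for the 47 tested genes of ATF4 and the amino acid response, in 3 panels by role. Filled points had an adjusted p below 0.05, and green lies above 0 and purple below it. Factors, sensors and enzymes lie mostly above 0, from Aldh1l1 at 4.07 down, and most transporters below it, to Slc7a7 at -2.996.

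Promoter windows are shown for 5 of the genes that rose in this group, because they carry the letters that ATF4 binds with C/EBP partners in amino acid response elements. Each runs 5′ to 3′ from 250 bases before to 50 after the annotated start (RefSeq, GRCm38.p6), with the match to TGATGNAA, on either strand, in capitals.
Nupr1, chr7:126625421-126625720, minus strand: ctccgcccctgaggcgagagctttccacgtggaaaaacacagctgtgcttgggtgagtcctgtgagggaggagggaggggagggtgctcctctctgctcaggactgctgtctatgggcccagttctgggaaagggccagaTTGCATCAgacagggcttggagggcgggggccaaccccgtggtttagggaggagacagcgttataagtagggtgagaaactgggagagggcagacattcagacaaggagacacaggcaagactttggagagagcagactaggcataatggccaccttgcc
Chac1, chr2:119350992-119351291, plus strand: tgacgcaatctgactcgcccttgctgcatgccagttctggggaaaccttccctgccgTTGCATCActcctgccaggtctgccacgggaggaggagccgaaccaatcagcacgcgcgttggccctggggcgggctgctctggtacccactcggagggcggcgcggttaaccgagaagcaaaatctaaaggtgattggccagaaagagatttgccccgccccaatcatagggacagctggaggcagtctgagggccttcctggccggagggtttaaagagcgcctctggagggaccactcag
Asns, chr6:7693160-7693459, minus strand: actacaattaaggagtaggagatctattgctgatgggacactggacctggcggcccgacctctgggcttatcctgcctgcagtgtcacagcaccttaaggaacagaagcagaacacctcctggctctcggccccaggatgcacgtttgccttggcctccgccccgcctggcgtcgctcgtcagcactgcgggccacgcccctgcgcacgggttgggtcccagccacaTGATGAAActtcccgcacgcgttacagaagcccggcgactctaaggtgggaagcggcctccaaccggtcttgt
Trib3, chr2:152344011-152344310, minus strand: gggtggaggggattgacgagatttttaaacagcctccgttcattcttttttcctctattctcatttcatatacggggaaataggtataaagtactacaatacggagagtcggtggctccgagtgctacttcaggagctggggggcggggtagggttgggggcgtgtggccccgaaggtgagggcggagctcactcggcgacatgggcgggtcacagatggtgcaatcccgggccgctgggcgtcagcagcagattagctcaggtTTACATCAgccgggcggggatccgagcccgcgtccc
Pycr1, chr11:120643699-120643998, minus strand: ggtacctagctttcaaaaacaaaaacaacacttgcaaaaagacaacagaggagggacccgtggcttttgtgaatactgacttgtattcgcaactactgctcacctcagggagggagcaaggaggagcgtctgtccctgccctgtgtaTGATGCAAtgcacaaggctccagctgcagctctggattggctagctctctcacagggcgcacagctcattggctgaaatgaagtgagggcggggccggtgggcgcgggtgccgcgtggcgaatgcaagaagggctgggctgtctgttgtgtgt
The match starts at position -110 in Nupr1, -193 in Chac1, -23 in Asns, 14 in Trib3 and -103 in Pycr1, counting the annotated start as 0. Of the 38 tested members with a window 12 held a match, or 31.6%, against 4.51% of the 27025 genes with a window. The list was assembled as ATF4 and amino acid genes, so a larger share could follow from that choice. The 27025 genes include genes that were not tested here. They are also the comparison set for the other motif shares in this text. The 12 were Atf3, Nupr1, Trib3, Chac1, Vldlr, Fgf21, Asns, Pycr1, Got1, Slc7a11, Slc1a4 and Slc7a7. They included genes that fell, such as Slc7a7 and Slc7a11 (-0.48), and Fgf21, which did not pass. The 5 windows were chosen after all had been read, as the passing members with a match and the largest increases, and a match is a run of letters that says nothing of binding.

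Most genes of this group were lower in 2iL-F than in the libraries labelled 2iL. In the direct contrast of 2iL-F with 2iL, 13 of the 47 members were higher in 2iL-F and 30 lower, with a median of -0.47. Of all named genes 29.3% were higher in 2iL-F and 34.9% lower in this contrast. Nupr1 had 46.5 and 47.3 TPM in 2iL-F, against 128 and 126 TPM in 2iL, a difference of -1.42, and Gpt2 had 59.9 and 59.5 TPM in 2iL-F, against 181 and 188 TPM in 2iL, a difference of -1.61. Against A2iL the same genes were split, with 19 higher in 2iL-F, 16 lower and a median of 0.05. Both counts were above the shares of all named genes against A2iL, 23.7% higher and 23.9% lower. The summed fibroblast markers differ between 2iL-F and 2iL as given above, and their part in this contrast was not tested. Transfer RNA synthetases rose in 8 of 18 cases and fell in 5 relative to SL, with Aars (0.86) and Cars (0.87) at the top and Rars (-0.69) at the bottom.

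Transcripts of lipid synthesis genes were also mostly higher in 2iL-F. Of 16 enzymes of cholesterol synthesis 12 rose and 2 fell (median 0.73), and of 12 genes of its regulation and uptake 7 rose and 3 fell. Fdft1, which makes squalene, had 91.1 and 90.6 TPM in 2iL-F, against 37.8 and 42.0 TPM in SL (1.17 ± 0.0705), and Nsdhl, a later step, had 35.2 and 32.5 TPM in 2iL-F, against 14.9 and 15.9 TPM in SL (1.09 ± 0.0635). Soat1, which esterifies cholesterol for storage, had 3.77 and 4.22 TPM in 2iL-F, against 20.98 and 21.2 TPM in SL (-2.15 ± 0.118), with the SL libraries high. Fatty acid synthesis genes rose in 15 of 20 cases and fell in 3 (median 0.63). The desaturases Fads1 and Fads2 rose by 1.51 and 1.58, and Scd2 had 615 and 610.0 TPM in 2iL-F, against 252 and 268 TPM in SL (1.24 ± 0.0540). Of 15 oxidation genes 7 rose and 4 fell. Among the increases the fatty acid carrier Fabp3 had 503 and 494 TPM in 2iL-F, against 65.8 and 64.5 TPM in SL (2.92 ± 0.0439; adjusted p = 2.74e-09), the rate-limiting Cpt1a had 76.1 and 77.0 TPM in 2iL-F, against 19.203 and 19.7 TPM in SL (1.92 ± 0.0575) and the mitochondrial carnitine carrier Slc25a20 had 31.4 and 33.4 TPM in 2iL-F, against 8.27 and 9.05 TPM in SL (1.79 ± 0.0610). Each of these 3 separated the groups with 2iL-F high. The letters TCACNCCAC, which the sterol factors SREBP bind, stood in none of the windows of 20 cholesterol genes, against 1.44% of all genes. With so low a share among all genes, none in 20 says little about these genes. Relative to the libraries labelled 2iL, fatty acid genes were lower in 2iL-F in 22 of 35 cases and higher in 5. Of all named genes 34.9% were lower and 29.3% higher in that contrast. Fabp3 had 1107 and 1077 TPM in 2iL.

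Transcripts of mitochondrial respiration genes were a little higher in 2iL-F at many members, and 25 did not pass. Of 53 subunits of the respiratory chain and ATP synthase 26 rose and 2 fell, with a median of 0.19 and a largest difference of 0.92, that of Cox5a, with 151 and 148 TPM in 2iL-F, against 81.2 and 76.0 TPM in SL. The count of decreases was 1 without SL replicate 3, 1 after median-of-ratios scaling and 4 without the lines that follow the fibroblast markers. In glycolysis 11 of 21 genes rose and 6 fell. The phosphofructokinase Pfkp had 46.0 and 45.7 TPM in 2iL-F, against 8.13 and 8.61 TPM in SL (2.32 ± 0.0493), and Ldhb, the lactate dehydrogenase chain of oxidative tissues, had 404 and 407 TPM in 2iL-F, against 94.2 and 88.6 TPM in SL (2.14 ± 0.0841). Pdk1, a kinase that keeps pyruvate out of mitochondria, had 8.87 and 9.10 TPM in 2iL-F, against 51.0 and 52.2 TPM in SL (-2.40 ± 0.0512), and the glucose transporter Slc2a1 had 224 and 219 TPM in 2iL-F, against 468 and 484 TPM in SL (-1.10 ± 0.0412). Pfkp and Ldhb were thus higher in both 2iL-F libraries, and Pdk1 and Slc2a1 lower, than in either SL library. A2iL shared the level of Pfkp, at 43.0 and 43.3 TPM, but not that of Pdk1, at 66.7 and 65.1 TPM.

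Lysosome and autophagy genes rose in 26 of 40 cases and fell in 7 (median 0.35). The decreases numbered 4 without 2iL-F replicate 3, 4 without 2iL-F replicate 5, 3 without SL replicate 3 and 4 after median-of-ratios scaling. The regulators stood out: Mitf had 12.2 and 11.9 TPM in 2iL-F, against 1.11 and 1.55 TPM in SL (2.49 ± 0.125) and its relative Tfeb, the master factor of lysosome genes, had 48.3 and 41.9 TPM in 2iL-F, against 11.6 and 11.6 TPM in SL (1.87 ± 0.09999). Ulk1, the kinase that starts autophagy, had 121 and 116 TPM in 2iL-F, against 32.7 and 31.6 TPM in SL (1.85 ± 0.0588). Hexa, a lysosomal enzyme that degrades gangliosides, rose by 1.32 and the protease Ctsa by 1.07. All 5 genes were higher in both 2iL-F libraries than in either SL library. The letters CACGTG, the core of the motif of these factors, stood in the windows of 10 of 30 members (33.3%), against 8.09% of all genes with a window. The list was assembled as lysosome and autophagy genes, so a larger share could follow from that choice, and a match says nothing of binding. The longer CLEAR element, which holds that core, stood in none of the 30, against 0.37% of all genes, a share too low for none in 30 to be informative.

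Stress genes did not move as one. The oxidative stress genes of the NRF2 and glutathione group rose in 11 of 31 cases and fell in 13, near the shares of all named genes. Txnrd1, thioredoxin reductase, had 103 and 105 TPM in 2iL-F, against 247 and 253 TPM in SL (-1.25 ± 0.0714) and the haem oxygenase Hmox1 had 103 and 94.9 TPM in 2iL-F, against 222 and 233 TPM in SL (-1.19 ± 0.0575), both NRF2 targets. Sod2, the mitochondrial superoxide dismutase, had 135 and 143 TPM in 2iL-F, against 48.8 and 47.1 TPM in SL (1.52 ± 0.0495), and catalase, Cat, had 112 and 114 TPM in 2iL-F, against 54.4 and 54.5 TPM in SL (1.04 ± 0.0656). The first pair was thus lower and the second higher in 2iL-F. Heat shock genes and chaperonins fell in 19 of 28 cases and rose in 3 (median -0.29), among them Hspd1 (-0.68) and Hsph1 (-0.76), while Hspb1 rose (0.89), and 5 rose after median-of-ratios scaling. The metallothioneins, which bind zinc, rose. Mt1 had 791 and 804 TPM in 2iL-F, against 369 and 368 TPM in SL (1.11 ± 0.0436), and Mt2 had 2502 and 2673 TPM in 2iL-F, against 1237 and 1183 TPM in SL (1.10 ± 0.0536). Targets of p53 fell in 15 of 29 cases and rose in 7. Perp, a membrane protein of desmosomes, had 9.02 and 9.62 TPM in 2iL-F, against 55.0 and 54.0 TPM in SL (-2.43 ± 0.0981), the BH3 protein Pmaip1 had 23.8 and 24.3 TPM in 2iL-F, against 74.3 and 77.4 TPM in SL (-1.62 ± 0.0710), and Mdm2, the ubiquitin ligase of p53, had 68.3 and 73.6 TPM in 2iL-F, against 143 and 143 TPM in SL (-0.999 ± 0.0856).

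Cell cycle genes differed at single members. Of 21 genes of G1 and S phase 7 rose and 7 fell. Ccnd2, a D-type cyclin, had 19.5 and 20.1 TPM in 2iL-F, against 79.2 and 85.2 TPM in SL (-2.002 ± 0.0724) and had 0.0932 and 0.0350 TPM in the libraries labelled 2iL. Ccne1, the cyclin that starts S phase, had 78.9 and 74.7 TPM in 2iL-F, against 197 and 203 TPM in SL (-1.37 ± 0.0527), and Ccnd3 had 71.8 and 68.8 TPM in 2iL-F, against 33.4 and 36.1 TPM in SL (0.996 ± 0.0610). The conditions did not overlap at any of the 3 cyclins. DNA replication genes rose in 22 of 46 cases and fell in 4 (median 0.18), with Cdc45 at 64.1 and 64.1 TPM in 2iL-F, against 35.6 and 34.6 TPM in SL (0.85 ± 0.0554), but 14 rose and 1 fell without 2iL-F replicate 3, and 12 rose without SL replicate 3. Ribosomal protein genes rose in 7 of 26 cases and fell in none (median 0.11), and the count of increases was 18 after median-of-ratios scaling and 3 without SL replicate 5. For telomere genes the counts were 6 higher and 4 lower among 14, with Nhp2, a protein of the telomerase RNA complex, at 477 and 496 TPM in 2iL-F, against 858 and 818 TPM in SL (-0.78 ± 0.0957) and Terf1, which binds telomeric repeats, at 40.6 and 43.4 TPM in 2iL-F, against 29.1 and 28.8 TPM in SL (0.52 ± 0.0844), and 3 rose without 2iL-F replicate 3.

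Hormone, metal and growth factor genes held further large single changes. Of 17 glucocorticoid targets 10 rose and 4 fell (median 0.39). Klf15, a factor of fasting metabolism, had 11.05 and 10.7 TPM in 2iL-F, against 1.47 and 0.930 TPM in SL (2.44 ± 0.108), and Errfi1, an inhibitor of the EGF receptor, had 8.23 and 8.22 TPM in 2iL-F, against 52.1 and 53.4 TPM in SL (-2.54 ± 0.0581). These 2 genes lay on opposite sides, and the receptor gene Nr3c1 itself fell (-0.84). Genes of iron, zinc and selenium metabolism rose in 10 of 20 cases and fell in 8: the ferric reductase Steap4 had 3.74 and 3.57 TPM in 2iL-F, against 0.553 and 0.701 TPM in SL (1.52 ± 0.0838), and the zinc and iron importer Slc39a14 had 4.01 and 3.92 TPM in 2iL-F, against 17.4 and 18.4 TPM in SL (-1.93 ± 0.0672). A2iL held 37.9 and 37.1 TPM of Steap4, and both libraries labelled 2iL list it at 0. Retinoid genes rose in 4 of 15 cases and fell in 8, of which 5 were left at a filter of 5 TPM. The retinaldehyde dehydrogenase Aldh1a3 had 3.91 and 3.03 TPM in 2iL-F, against 0.540 and 0.437 TPM in SL (1.58 ± 0.120), and Crabp1, a binding protein of retinoic acid, had 91.4 and 83.6 TPM in 2iL-F, against 208 and 216 TPM in SL (-1.27 ± 0.0664). Notch and Hedgehog genes fell in 11 of 18 cases and rose in 3 (median -0.58), among them the Notch ligands Dll3 (-2.24), Dll1 (-1.95) and Jag2 (-1.70) and the Hedgehog target Gli1 (-1.63). The hypoxia response genes rose in 9 of 15 cases and fell in 1, the peptide hormone gene Adm, with 3.31 and 4.05 TPM in 2iL-F, against 11.9 and 12.4 TPM in SL (-1.49 ± 0.0939). Ndrg1, a marker of hypoxia, had 13.4 and 13.2 TPM in 2iL-F, against 2.89 and 2.86 TPM in SL (1.88 ± 0.0681). Of 23 apoptosis regulators 7 rose and 10 fell, near the shares of all named genes. The caspase-8 inhibitor Cflar (-1.72) and the BH3 gene Bcl2l11 (-1.63) were lower and the initiator caspase gene Casp9 (1.13) higher in 2iL-F.

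Against the 2 conditions nearest to it in medium, 2iL-F differed at fewer lines than against SL. In the contrast with 2iL 8995 lines changed, or 61.7%, and in the contrast with A2iL 6597, or 45.3%. The contrast with 2iL held 44 of 45 fibroblast markers higher in 2iL-F and none lower, against 29.3% and 34.9% of all named genes. In the contrast with A2iL 21 of the 45 were higher in 2iL-F and 18 lower, with a median of 0.11, and the sum of markers in A2iL was 4343 to 4395 TPM. Relative to A2iL, ERK feedback genes were lower in 2iL-F in 7 of 10 cases and higher in 2, and fatty acid genes higher in 20 of 35 and lower in 5. Genes of the acute phase, complement, chemokines and cytokines were lower in 2iL-F than in A2iL in 30 of 41 cases and higher in 8. These counts against A2iL stand beside 23.7% of all named genes that were higher in 2iL-F and 23.9% that were lower. Calcoco2 and Smtnl1 differed most from A2iL among the 15 largest increases, by 5.54 and 4.13, and Spry4 and Mcpt8 among the 15 largest decreases, by -4.57 and -4.25.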

How the data were processed

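RNA was extracted with a Qiagen mini kit and made into NEBNext Ultra libraries, per the labels' protocols. The authors deposited 1 table of TPM values per gene line and library. Per the submitters' processing notes Bowtie2, RSEM, DESeq2 and R 3.4.2 were used with the build mm10, with versions of the first 3 not given in the sources used here. TPM keep no read number, so depth is unknown and no counting error can be given. Lines of at least 1 TPM in 2 or more of the 10 libraries were kept, which left 14578 of 20494.

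Differences of log2(TPM + 1) between condition means were tested with limma 3.58.1 (R 4.3.3; eBayes with a trend) fitted to all 10 libraries in 5 conditions, with 5 residual degrees of freedom and Benjamini-Hochberg adjustment over all lines. The fit was tested on simulated data. Groups and the numbers 3 and 5 of the replicates come from the labels.

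In the later lines of the table the symbols do not stay beside their own values, so genes are named only from the first part, where 97.9% of 97 broadly expressed genes reached 5 TPM and none of 6 tissue-restricted ones did. RefSeq (GRCm38.p6) holds 9757 of these symbols, or 98.9%, and its 300-base windows around annotated starts gave the promoters.

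The members and gene lists were chosen with earlier results of these data known. The text names the 15 largest increases and decreases, up to 6 passing members of each list, and other members where a role needed them. Alternatives were other filters, pseudocounts, scalings, a robust fit, a replicate block, smaller sets of lines or libraries, and leaving out each library.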

Additional observations from a re-analysis of the deposited data

How the results depend on the processing

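Of 14578 lines, 9540 changed between 2iL-F and SL, and every alternative run except that of testing only the lines that can be named kept this count within 1.5 times. With those lines alone 5645 changed, 2390 higher in 2iL-F and 3255 lower, and 5332 changed between 2iL-F and 2iL and 4030 between 2iL-F and A2iL, since fewer lines were tested. Leaving out 1 library gave 8325 to 8446 changes against SL, with 3552 to 3742 higher and 4691 to 4867 lower. The same gave 7657 to 8783 changes against 2iL and 5039 to 5225 against A2iL, where a lone library was assumed to vary like the other groups. The share of changes that were higher in 2iL-F was 43% and became 49.7% after median-of-ratios scaling, which moved the median difference of all lines to -0.01. Without both 2iL libraries, an alternative chosen after seeing the data, 10036 changed. Without the 695 lines that follow the fibroblast markers 9138 of 13883 changed. The deviations of same-numbered 2iL-F and SL libraries correlated at 0.03 and nothing states that the numbers 3 and 5 pair libraries, and with the replicate block 9413 lines changed. Precision is limited by 2 libraries per condition, by TPM without depth, and by log2(TPM + 1), which compresses differences below about 1 TPM.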
